A study of Homo sapiens with 8 samples.

Results

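The genes described here are 10 noncoding hosts of small nucleolar RNAs (snoRNAs): GAS5, ZFAS1, SNHG1, SNHG5, SNHG6, SNHG7, SNHG8, SNHG12, SNHG15 and SNHG16. They were chosen by name, with earlier results of these data known, and every skipped-exon event listed under these symbols was taken. All 10 were listed, of 13437 genes in all, with 207 events of 82355 in MCF10A and 204 of 98244 in HMLE TWIST, which came to 294 distinct events of 123924. An event is a middle exon together with its flanking exons, and 117 of the members' events were listed with the same coordinates in both lines.

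Host transcripts are spliced, and their introns are trimmed to snoRNAs, which guide ribose methylation (C/D box, SNORD genes) or pseudouridylation (H/ACA box, SNORA genes), mostly of ribosomal RNA. The spliced exons are exported and hold only short reading frames, so that ribosomes end early on them. Several hosts are known substrates of nonsense-mediated decay, a pathway that needs translation, and inhibitors of translation are known to raise their level.

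RNA was sequenced from the non-tumorigenic breast line MCF10A, an epithelial model, and from HMLE TWIST, immortalised breast epithelial cells with a retrovirally integrated pBabe vector that overexpresses the transcription factor TWIST. Each line was given the solvent DMSO or 10 µM emetine, an alkaloid that blocks elongation by the ribosome, for 24 h. The 4 groups held 2 libraries each, which the submitters call biological replicates. All cells of a group came from a single line, the solvent was shared by all controls, and with 2 libraries a group an SD is the spread of 2 values.

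Junction reads summed over all listed events ran from 78412292 to 91259363 per library. The lines carried opposite marker profiles. The 9 epithelial markers with events, of 12 listed, summed to 3730 and 3773 CPM (junction reads scaled to a common library size) in MCF10A with DMSO and to 2026 and 2053 with emetine, while in HMLE TWIST 2 of the 12 passed the filter and summed to 0.387 to 1.02. CDH1 and ESRP1 had values in MCF10A and none in HMLE TWIST, and EPCAM had none in either line. The 11 mesenchymal markers with events in HMLE TWIST summed to 56246 and 58754 with DMSO and to 26481 and 28369 with emetine. In MCF10A 6 had events and summed to 360 and 392 with DMSO and to 83.9 and 90.2 with emetine. A gene without a value had no listed event that passed the filter, which does not show that it was not expressed. No endothelial marker was listed in either line. Of 4 blood markers, none was listed in MCF10A and 1 passed the filter in HMLE TWIST, at 101 and 121 in the controls. The part of these differences in the results was not tested.

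The exons that changed in SNHG8, SNHG16 and ZFAS1 are shown first, since the counts below refer to them. Their coordinates are those of the deposited tables, with starts counted from 1, in GRCh37 per the submitters' processing notes. The letters, 5′ to 3′ on the transcribed strand, are from GENCODE 29 transcripts, in which the exon and both flanking introns had the same lengths as in at least 1 listed event of that exon. The SNHG8 exon of 194 nt (chr4:119200099-119200292, plus strand) ends with an exon of 31 nt (chr4:119200262-119200292) that has its own splice site, and the capitals mark these last 31 bases.
SNHG8 exon of 194 nt: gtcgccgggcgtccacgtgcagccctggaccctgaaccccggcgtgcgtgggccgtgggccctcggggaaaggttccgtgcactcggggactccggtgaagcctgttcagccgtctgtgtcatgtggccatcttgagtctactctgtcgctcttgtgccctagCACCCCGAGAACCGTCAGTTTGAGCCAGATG
The other exons shown are chr17:74554456-74554682 and chr17:74555027-74555125 of SNHG16, and chr20:47897022-47897107 and chr20:47897440-47897501 of ZFAS1, all on the plus strand. Exons of SNHG1 and GAS5 that were called in HMLE TWIST alone, both on the minus strand, are described further below without their letters.
SNHG16 exon of 227 nt: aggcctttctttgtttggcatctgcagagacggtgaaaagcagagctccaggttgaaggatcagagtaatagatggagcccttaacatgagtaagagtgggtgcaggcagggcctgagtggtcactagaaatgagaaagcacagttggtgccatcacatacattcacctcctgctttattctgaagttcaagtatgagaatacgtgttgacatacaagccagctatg
SNHG16 exon of 99 nt: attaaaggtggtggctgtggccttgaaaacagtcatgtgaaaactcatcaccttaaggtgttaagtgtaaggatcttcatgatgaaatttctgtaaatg
ZFAS1 exon of 86 nt: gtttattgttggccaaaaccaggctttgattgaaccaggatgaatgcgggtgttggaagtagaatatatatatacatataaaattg
ZFAS1 exon of 62 nt: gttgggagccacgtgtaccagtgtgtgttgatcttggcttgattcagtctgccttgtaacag
The snoRNA genes lie in the introns beside these exons. By RefSeq positions within the matched introns, SNORA24 lies in the intron after the SNHG8 exon, SNORD1C after the 227 nt exon of SNHG16 and SNORD1B after its 99 nt exon. SNORD12B lies before the 86 nt exon of ZFAS1 and SNORD12 between its 86 nt and 62 nt exons. The number of RefSeq snoRNA genes inside the host was 11 for GAS5, 9 for SNHG1, 4 for SNHG12, 3 each for ZFAS1 and SNHG16, 2 each for SNHG5 and SNHG7, and 1 each for SNHG6, SNHG8 and SNHG15.

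Many hosts are transcribed from starts with a terminal oligopyrimidine (TOP) tract, a run of C and T that begins with C and that is shared with ribosomal protein genes. RefSeq start windows (GRCh38.p14) were matched by symbol for 8 of the 10 members. The 15 bases before and the 25 from the annotated start are printed on the transcribed strand, and the capitals mark the tract where at least 5 pyrimidines beginning with C started within 5 bases of the annotated start.
ZFAS1, chr20:49278627-49278666, plus strand: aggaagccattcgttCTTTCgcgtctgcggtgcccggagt
SNHG5, chr6:85678709-85678748, minus strand: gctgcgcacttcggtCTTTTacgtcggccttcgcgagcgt
SNHG7, chr9:136728160-136728199, minus strand: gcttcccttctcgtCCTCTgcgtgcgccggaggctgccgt
SNHG8, chr4:118278747-118278786, plus strand: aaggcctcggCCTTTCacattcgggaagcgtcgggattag
SNHG12, chr1:28581849-28581888, minus strand: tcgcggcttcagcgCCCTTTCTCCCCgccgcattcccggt
SNHG16, chr17:76557749-76557788, plus strand: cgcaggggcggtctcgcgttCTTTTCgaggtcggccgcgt
GAS5, chr1:173869021-173869060, minus strand: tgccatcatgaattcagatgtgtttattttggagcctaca
SNHG1, chr11:62855861-62855900, minus strand: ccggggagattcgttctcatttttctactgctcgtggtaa
A tract was found in 6 of these 8 windows (75%), against 7408 of 35116 RefSeq start windows (21.1%), searched on the transcribed strand alone. The windows of GAS5 and SNHG1 held none at their annotated start. Only a single window was kept for each symbol, so this does not speak to other starts of these genes. The members with a tract did not share a direction of change. ZFAS1, SNHG7, SNHG8 and SNHG12 rose in both lines, SNHG16 fell in both and SNHG5 was not called in either. GAS5 and SNHG1, with no tract in their window, also rose in both lines. A relation between tract and change was not tested.

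Depth was taken as the junction reads of a gene summed over its listed events, in CPM, with library sizes scaled by the trimmed mean of M-values. A read counts in each event that uses its junction, so the sum follows both the amount of RNA and the number of listed events. It is not compared between genes here, and levels of the lines are compared only over events in both tables. ZFAS1, SNHG7 and SNHG12 are typed as antisense in GENCODE 29, and reads of an overlapping partner cannot be told apart here. In bulk RNA, fewer cells with a transcript and less transcript per cell cannot be told apart. A gene was called where the Benjamini-Hochberg adjusted p of limma-voom was under 0.05 over all tested genes. The labels do not say whether replicates came from separate cultures, so p-values measure the spread between these libraries.

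Under emetine, most hosts rose in both lines. In MCF10A 8 of the 10 were called, with 7 higher and 1 lower, where 70.1% of 11368 tested genes were called, 35.8% higher and 34.4% lower. In HMLE TWIST 8 of the 10 were again called, 7 higher and 1 lower, where 57.3% of 11470 genes were called, 30.0% higher and 27.3% lower. GAS5, ZFAS1, SNHG1, SNHG7, SNHG8, SNHG12 and SNHG15 rose in both lines and SNHG16 fell in both. The members' median log2 change was 0.64 in MCF10A, against 0.01 over all genes, and 1.18 in HMLE TWIST, against 0.04. Of the members, 3 were at least 2-fold higher in MCF10A, as were 19.9% of all genes, and 6 were in HMLE TWIST, as were 20.3%.

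**Figure D1:**
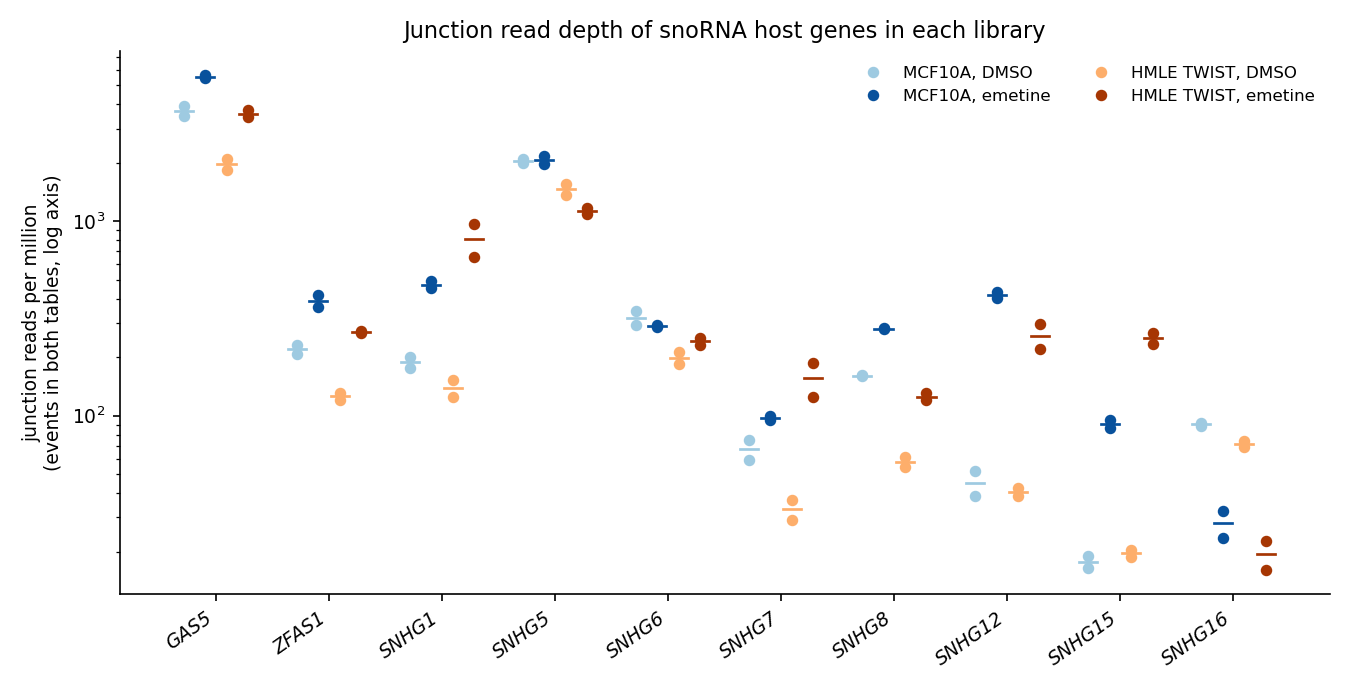
Junction read depth in CPM (log axis) of each host gene in each of the 8 libraries, over events listed in both tables, a narrower set than in the text on each line. Points are libraries, bars the mean of the 2 libraries of a group, and colours the 4 groups. SNHG12 and SNHG15 show the widest gaps between solvent and emetine, SNHG5 and SNHG6 the narrowest, and the emetine points of SNHG16 lie below its controls.

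SNHG12, the host of SNORA16A, SNORA44, SNORA61 and SNORD99, stood at 36.7 and 50.1 CPM with DMSO in MCF10A, against 420 and 392 with emetine. The HMLE TWIST libraries had 32.1 and 28.6 with DMSO, against 166 and 213 with emetine. Emetine libraries were far above the controls in both lines, with no overlap. The rise was 9.45-fold in MCF10A (log2 change 3.24, SE 0.14, limma-voom adjusted p = 6.79e-06) and 6.21-fold in HMLE TWIST (log2 change 2.63, SE 0.21, limma-voom adjusted p = 2.44e-08).

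SNHG15, the host of SNORA9, had 11.6 and 13.4 CPM in the MCF10A controls and 16.5 and 15.4 CPM in those of HMLE TWIST. Under emetine it reached 67.4 and 61.5 in MCF10A and 199 and 216 in HMLE TWIST. All emetine libraries lay above all controls. The rise was 5.15-fold (log2 change 2.36, SE 0.13, limma-voom adjusted p = 1.26e-05) and 13.0-fold (log2 change 3.70, SE 0.21, limma-voom adjusted p = 3.59e-10), the highest of the 10 in HMLE TWIST.

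SNHG1 carries C/D box snoRNAs in most of its introns. Its depth was 211 and 237 CPM with DMSO in MCF10A, against 539 and 581 with emetine. For HMLE TWIST the values were 183 and 146 with DMSO, against 841 and 1201 with emetine. The emetine libraries of HMLE TWIST differed from each other more than those of any other group, yet both were far above the higher control. Fold changes were 2.50 (log2 change 1.32, SE 0.09, limma-voom adjusted p = 2.42e-05) and 6.14 (log2 change 2.62, SE 0.20, limma-voom adjusted p = 1.27e-08).

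SNHG7, the host of SNORA17A and SNORA17B, had 42.1 and 53.2 CPM with DMSO in MCF10A, against 71.0 and 67.3 with emetine. HMLE TWIST gave 17.8 and 22.2 with DMSO, against 80.7 and 115 with emetine. The groups did not overlap in either line, with a narrow gap in MCF10A. The rise was 1.46-fold in MCF10A (log2 change 0.55, SE 0.13, limma-voom adjusted p = 0.00728) and 4.84-fold in HMLE TWIST (log2 change 2.28, SE 0.24, limma-voom adjusted p = 4.32e-07). The MCF10A call rested on the first listed control: without it the log2 change was 0.37 and the limma-voom adjusted p was 0.0858.

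GAS5, named for its accumulation in growth-arrested cells and host of 11 snoRNA genes, had 4227 and 4635 CPM with DMSO in MCF10A, against 6829 and 6601 with emetine. The HMLE TWIST libraries had 1824 and 2050 with DMSO, against 3612 and 3748 with emetine. The groups were apart in both lines, with a wider relative gap in HMLE TWIST. The rise was 1.52-fold (log2 change 0.60, SE 0.06, limma-voom adjusted p = 1.88e-04) and 1.90-fold (log2 change 0.93, SE 0.14, limma-voom adjusted p = 1.96e-05).

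ZFAS1, the host of the SNORD12 family, had 415 and 466 CPM with DMSO in MCF10A, against 840 and 741 with emetine. For HMLE TWIST the values were 101 and 110 with DMSO, against 241 and 239 with emetine. Groups did not overlap. Its rise was 1.79-fold (log2 change 0.84, SE 0.09, limma-voom adjusted p = 2.07e-04) and 2.28-fold (log2 change 1.19, SE 0.18, limma-voom adjusted p = 2.69e-05).

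SNHG8, the host of SNORA24, had 153 and 150 CPM with DMSO in MCF10A, against 240 and 244 with emetine. HMLE TWIST gave 33.2 and 37.2 with DMSO, against 84.4 and 74.0 with emetine. Both lines showed separate groups. The rise was 1.60-fold (log2 change 0.67, SE 0.08, limma-voom adjusted p = 2.21e-04) and 2.25-fold (log2 change 1.17, SE 0.21, limma-voom adjusted p = 1.35e-04).

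SNHG16, the host of SNORD1A, SNORD1B and SNORD1C, went the other way. It had 64.8 and 62.9 CPM with DMSO in MCF10A, against 22.9 and 16.7 with emetine, and 42.0 and 44.8 against 10.4 and 13.9 in HMLE TWIST. Every emetine library was below every control. The level was 3.27-fold lower in MCF10A (log2 change -1.71, SE 0.15, limma-voom adjusted p = 7.90e-05) and 3.59-fold lower in HMLE TWIST (log2 change -1.85, SE 0.24, limma-voom adjusted p = 4.22e-06).

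SNHG5, the host of SNORD50A and SNORD50B, had 1417 and 1485 CPM with DMSO in MCF10A, against 1537 and 1402 with emetine. The HMLE TWIST libraries had 1040 and 1176 with DMSO, against 955 and 858 with emetine. The groups overlapped in MCF10A and were apart, but close, in HMLE TWIST. The log2 change was 0.02 (SE 0.07, limma-voom adjusted p = 0.843) and -0.29 (SE 0.15, limma-voom adjusted p = 0.117). Without the first listed emetine library of HMLE TWIST the latter was -0.36 and passed the threshold (limma-voom adjusted p = 0.0390), and with library totals in place of trimmed-mean scaling it was 0.06, on the other side of 0 (limma-voom adjusted p = 0.734).

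SNHG6, the host of SNORD87, had 208 and 243 CPM with DMSO in MCF10A, against 202 and 207 with emetine. For HMLE TWIST the values were 113 and 127 with DMSO, against 162 and 143 with emetine. Differences between the groups were of the size of those within them in MCF10A. The log2 change was -0.13 (SE 0.10, limma-voom adjusted p = 0.248) in MCF10A and 0.34 (SE 0.19, limma-voom adjusted p = 0.125) in HMLE TWIST. With library totals in place of trimmed-mean scaling the HMLE TWIST value was 0.69 and passed the threshold (limma-voom adjusted p = 0.00471). Total scaling moved the median of all genes in HMLE TWIST from 0.04 to 0.38 and the calls from 3440 higher and 3132 lower to 4650 higher and 1989 lower. The calls of the other members in that line were the same under both.

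**Figure D2:**
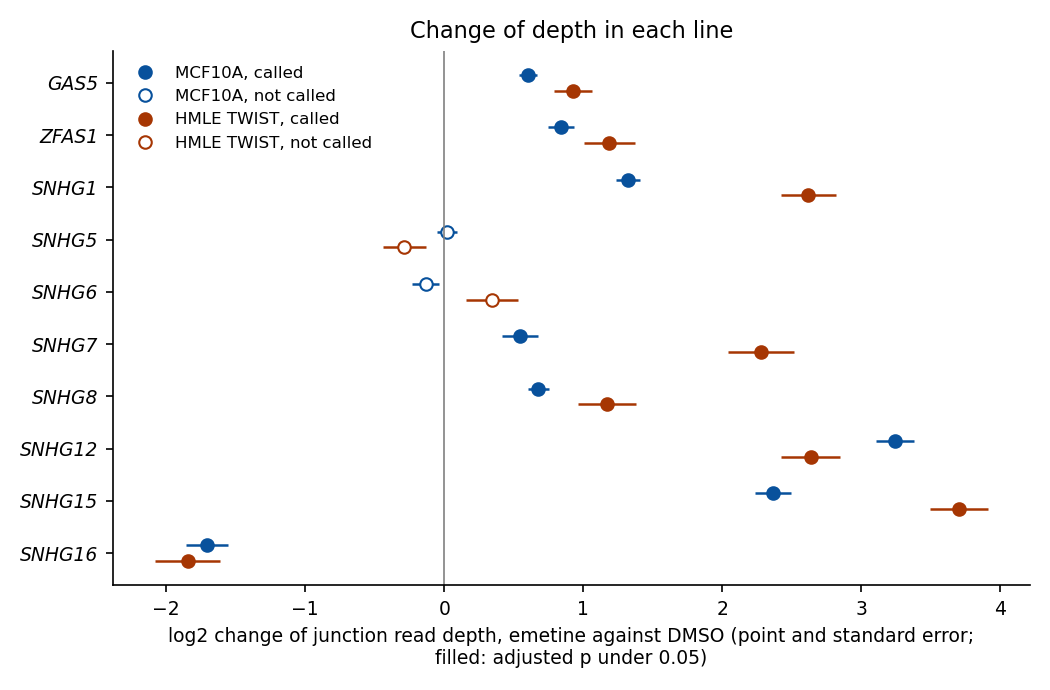
Log2 change of junction read depth, emetine against DMSO, of each host gene in MCF10A (blue) and HMLE TWIST (brown), with the standard error as a bar and filled points for limma-voom adjusted p under 0.05. All points of GAS5, ZFAS1, SNHG1, SNHG7, SNHG8, SNHG12 and SNHG15 are above 0, both of SNHG16 are below, and those of SNHG5 and SNHG6 are open.

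The response differed between the lines for 3 of the 10 members by the term for line and emetine over all 8 libraries, where 29.5% of 10385 genes were called, 12.8% with a higher change in HMLE TWIST and 16.7% with a lower. All 3 rose more in HMLE TWIST. The difference of log2 changes was 1.67 for SNHG7 (SE 0.29, limma-voom adjusted p = 0.0017), 1.31 for SNHG15 (SE 0.22, limma-voom adjusted p = 0.0015) and 1.21 for SNHG1 (SE 0.26, limma-voom adjusted p = 0.0051). That of SNHG12, which rose by more in MCF10A, was -0.57 and was not called (SE 0.26, limma-voom adjusted p = 0.114). With library totals as the scale 7 members were called, the added ones being GAS5, ZFAS1, SNHG6 and SNHG8, and the median of all genes moved from -0.05 to 0.17, with calls of 1998 higher and 1100 lower in place of 1331 and 1735. Without the first listed emetine library of HMLE TWIST 5 members were called, with GAS5 and SNHG6 added, and without the second SNHG12 was called at -0.78. Over all genes, leaving out the first or second MCF10A control cut the calls from 3066 to 1776 or 1811.

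In the controls, host depth was lower in HMLE TWIST. Over events in both tables, 8 of 10 members were called and all 8 were lower there, where 58.8% of 10082 genes were called, 29.0% higher and 29.8% lower, and the members' median log2 difference was -0.64 against -0.01 over all genes. SNHG8 stood at 149 and 149 CPM in MCF10A and at 48.5 and 55.4 in HMLE TWIST, 2.87-fold lower (log2 difference -1.52, SE 0.13, limma-voom adjusted p = 1.86e-09). SNHG7 stood at 55.3 and 69.5 against 25.9 and 33.1, 2.12-fold lower (log2 difference -1.08, SE 0.15, limma-voom adjusted p = 3.93e-06), and GAS5 at 3240 and 3603 against 1630 and 1877, 1.95-fold lower (log2 difference -0.97, SE 0.11, limma-voom adjusted p = 1.21e-07). The groups were apart for all of these.

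ZFAS1, SNHG6, SNHG5, SNHG1 and SNHG16 were 1.81-, 1.67-, 1.46-, 1.41- and 1.31-fold lower in the HMLE TWIST controls. The SNHG16 call was lost without either MCF10A control (limma-voom adjusted p = 0.177 and 0.116) and with its deepest event alone (0.129), and that of SNHG1 without the second MCF10A control (limma-voom adjusted p = 0.0968). The log2 differences of SNHG12, at -0.19, and SNHG15, at 0.10, were not called (limma-voom adjusted p = 0.285 and 0.617). The 3 genes whose depth followed the members' mean log2 depth most closely over the 8 libraries were EPHA2 (Pearson r = 0.992), NSUN5 (r = 0.990) and IKBKB (r = 0.987). These are descriptions over libraries that share 4 groups, and among the members r with that mean ran from 0.97 for ZFAS1 to -0.77 for SNHG16.

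The counts of other lists stand against the shares over all genes given above, 35.8% higher and 34.4% lower in MCF10A and 30.0% higher and 27.3% lower in HMLE TWIST. Of 15 further noncoding hosts, 7 were tested in MCF10A, with 4 higher and 3 lower, and 8 in HMLE TWIST, with 4 higher and 3 lower. SNHG17 was 5.75-fold and 14.0-fold higher in the 2 lines and SNHG11 was 7.51-fold and 8.15-fold higher. SNHG4 was 13.6-fold and 6.78-fold lower and SNHG14 was 6.59-fold and 5.55-fold lower. The list's median log2 change was 0.66 and 0.65.

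Most protein-coding hosts fell. Of 39 tested in each line, 33 were lower and 5 higher in MCF10A (median log2 change -0.79), and 30 were lower and 4 higher in HMLE TWIST (median -0.68). All 20 ribosomal protein genes among them were lower in both lines. HSPA8, a heat shock protein that hosts SNORD14 genes, was 97.0-fold and 26.7-fold lower and the import receptor IPO7 was 3.86-fold and 2.14-fold lower. C6orf48 was 3.06-fold and 4.06-fold higher and TAF1D, a subunit of a polymerase I factor, was 2.67-fold and 3.27-fold higher. The list was made by name, and whether each gene on it, C6orf48 among them, is protein-coding was not checked.

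Of 13 tested long noncoding RNAs that are not snoRNA hosts, 5 were higher and 1 lower in MCF10A, and 7 were higher and 4 lower in HMLE TWIST; the share higher in MCF10A and the share lower in HMLE TWIST were near those over all genes. ZNF561-AS1 was 3.93-fold and 6.81-fold higher and LINC00152 was 3.38-fold and 5.89-fold higher, while OIP5-AS1 was 1.86-fold and 2.91-fold lower. Genes of the nonsense-mediated decay machinery were higher in 11 of 14 and lower in 1 in MCF10A, and higher in 7 of 13 and lower in 1 in HMLE TWIST. SMG9 and UPF3B were chosen after their values were seen. SMG9 was 4.85-fold and 5.74-fold higher, and UPF3B, which joins the decay complex to the exon junction complex, was 3.28-fold and 1.90-fold higher. The difference between these lists was not tested, and their counts hold for trimmed-mean scaling, not recomputed with library totals.

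**Figure D3:**
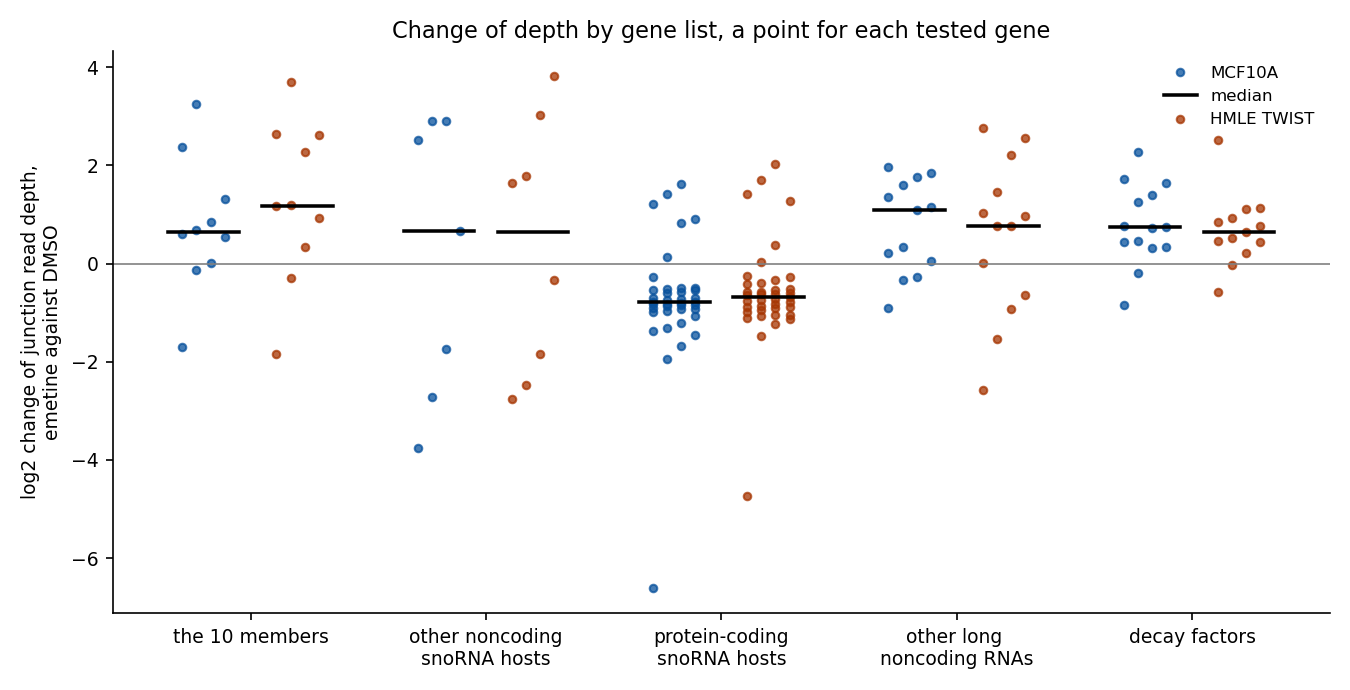
Log2 change of junction read depth, emetine against DMSO, of each tested gene in 5 lists, in MCF10A (blue) and HMLE TWIST (brown), with the list's median as a black line. Medians of the 10 members are above 0 and those of the protein-coding hosts, at -0.79 and -0.68, are below.

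Inclusion, the share of transcripts that carry the middle exon, was computed from inclusion and skipping reads divided by their effective lengths. An event was tested where every library had at least 20 reads and the rarer form at least 10 reads over the fit, and was called where the adjusted p of a quasi-binomial model was under 0.05 and the level moved by at least 0.1. Most host events could not be tested because the rarer form was nearly absent. In MCF10A 53 of 207 events were tested, 45 had too few reads and 109 had the rarer form under the minimum. In HMLE TWIST 54 of 204 were tested, 36 had too few reads and 114 had the rarer form under the minimum. Of the tested events, 37 of 53 and 34 of 54 had an inclusion level over 0.95 in the controls.

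All called host events rose under emetine. In MCF10A 5 of 53 tested events were called, in 3 genes, where 13.6% of 25522 events were called, 8.23% higher and 5.35% lower. In HMLE TWIST 9 of 54 were called, in 5 genes, where 14.4% of 30290 events were called, 6.37% higher and 8.07% lower. The members' shares, 9.43% and 16.7%, were near the shares called in either direction. Since all were rises, against the shares called higher 9.43% was near 8.23% in MCF10A and 16.7% was above 6.37% in HMLE TWIST. The difference was not tested, and some of the called events share junctions and are not independent. The median change over the members' tested events was 0.0014 and 0.0034, against -0.0002 and -0.0031 over all events. Of 40 host events tested in both lines, 4 were called in both and 6 in at least 1. By limma on the log2 odds of inclusion, 2 of the 5 and 4 of the 9 kept an adjusted p under 0.05, and that p is given beside each event.

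The 31 nt exon of SNHG8 had the widest change of the hosts in HMLE TWIST and rose in both lines. Inclusion and skipping reads were 697 and 427, and 814 and 422, in the MCF10A controls, and 1735 and 359, and 1716 and 389, under emetine. Levels were 0.556 and 0.597 with DMSO, against 0.788 and 0.772 with emetine, a rise from 0.576 ± 0.029 to 0.780 ± 0.011 (SD, n = 2). The change of 0.203 was called (quasi-binomial adjusted p = 7.41e-26, limma adjusted p = 0.0736).

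In HMLE TWIST the same exon had 193 and 307, and 196 and 292, inclusion and skipping reads in the controls, and 918 and 278, and 741 and 168, under emetine. Levels were 0.325 and 0.340 with DMSO, against 0.717 and 0.772 with emetine, all control values below all emetine values. The mean rose by 0.412 (quasi-binomial adjusted p = 1.92e-45, limma adjusted p = 0.0198). The lines differed in the controls by -0.244 (quasi-binomial adjusted p = 2.13e-11, limma adjusted p = 0.175), and under emetine the 4 libraries lay between 0.717 and 0.788.

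The longer SNHG8 exon of 194 nt shares the skipping junction with the 31 nt exon, so the events are not independent. Its level was 0.793 and 0.798 with DMSO in MCF10A, against 0.895 and 0.888 with emetine, and 0.563 and 0.614 against 0.839 and 0.885 in HMLE TWIST. Again the groups did not overlap. The change of 0.274 in HMLE TWIST was called (quasi-binomial adjusted p = 3.40e-45, limma adjusted p = 0.0326), and that of 0.0961 in MCF10A was under the minimum of 0.1 (quasi-binomial adjusted p = 2.32e-20, limma adjusted p = 0.116). Inclusion-form reads of the 31 nt exon rose 2.07-fold in MCF10A and 3.35-fold in HMLE TWIST after depth scaling, while skipping-form reads were at 0.796 and 0.584 of the control. These folds of single forms carry no test. The exon after SNORA24, of 43 nt and the deepest SNHG8 event, stayed at 0.994 to 0.998 in the means of all groups.

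In ZFAS1 inclusion of the 62 nt exon rose in both lines when joined to the 86 nt exon. Inclusion and skipping reads were 2896 and 1387, and 3388 and 1474, in the MCF10A controls, and 9040 and 1346, and 7739 and 1229, under emetine. Levels were 0.564 and 0.587 with DMSO, against 0.806 and 0.796 with emetine, a change of 0.225 (quasi-binomial adjusted p = 2.91e-99, limma adjusted p = 0.0542). In HMLE TWIST levels were 0.607 and 0.589 with DMSO, against 0.802 and 0.763 with emetine, a change of 0.185 (quasi-binomial adjusted p = 1.62e-45, limma adjusted p = 0.0864). The control and emetine libraries were apart in each line, and the 4 controls of both lines lay close together. In MCF10A the same exon joined directly to the exon before the 86 nt exon rose from 0.746 and 0.744 to 0.926 and 0.926 (change 0.181, quasi-binomial adjusted p = 1.70e-41, limma adjusted p = 0.0301).

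In the event of the 86 nt exon of ZFAS1, which lies between SNORD12B and SNORD12, this exon was joined directly to the exon after the 62 nt exon. The event shares a junction with each event of the 62 nt exon above, so these events are not independent. Its level was 0.778 and 0.798 with DMSO in HMLE TWIST, against 0.941 and 0.951 with emetine. In MCF10A it stood at 0.903 and 0.905 with DMSO, against 0.958 and 0.962 with emetine. Both lines thus had emetine libraries above the controls, from a lower start in HMLE TWIST. The change of 0.158 was called in HMLE TWIST (quasi-binomial adjusted p = 2.04e-58, limma adjusted p = 0.0250), and that of 0.0561 in MCF10A was under the minimum (quasi-binomial adjusted p = 7.54e-20, limma adjusted p = 0.0732). Without length correction the HMLE TWIST change was 0.0966, also under the minimum. The deepest ZFAS1 event of MCF10A, an exon of 105 nt between SNORD12C and SNORD12B, had 0 to 2 skipping reads beside 8083 to 16830 inclusion reads.

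SNHG16 fell in depth, and its rarely used 227 nt exon rose. In the MCF10A controls this exon had 70 and 864, and 144 and 862, inclusion and skipping reads, and under emetine 212 and 302, and 208 and 181. Levels were 0.0389 and 0.0771 with DMSO, against 0.260 and 0.365 with emetine, a change of 0.254 (quasi-binomial adjusted p = 2.36e-39, limma adjusted p = 0.0332).

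In HMLE TWIST the 227 nt exon had 10 and 589, and 17 and 586, inclusion and skipping reads in the controls, and 131 and 131, and 207 and 201, under emetine. Levels went from 0.00842 and 0.0143 to 0.333 and 0.340, a change of 0.325 (quasi-binomial adjusted p = 2.06e-65, limma adjusted p = 0.0113). Emetine brought both lines to a similar range from low starts. Inclusion-form reads were 1.78-fold and 9.83-fold those of the control in MCF10A and HMLE TWIST, and skipping-form reads were at 0.253 and 0.223, so the opposite courses of the forms lay within a gene whose total fell.

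The 99 nt exon of SNHG16, between SNORD1C and SNORD1B, was its deepest event. Its inclusion form uses the junction that counts as skipping of the 227 nt exon, so the events are not independent. Levels were 0.480 and 0.457 with DMSO in MCF10A, against 0.611 and 0.552 with emetine, and 0.358 and 0.336 against 0.490 and 0.558 in HMLE TWIST. Groups were apart in both lines. The change was 0.113 in MCF10A (quasi-binomial adjusted p = 1.32e-06, limma adjusted p = 0.296) and 0.176 in HMLE TWIST (quasi-binomial adjusted p = 2.73e-12, limma adjusted p = 0.137). The MCF10A call was lost without the first listed emetine library (change 0.0836) and without length correction (change 0.0971). Reads of both forms fell here: inclusion-form reads were at 0.285 and 0.276 of the control and skipping-form reads at 0.178 and 0.132. The remaining tested SNHG16 event, at mean levels of 0.994 (MCF10A) and 0.995 (HMLE TWIST) in the controls, went down. It moved by -0.0476 and -0.0577, under the minimum of 0.1.

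**Figure D4:**
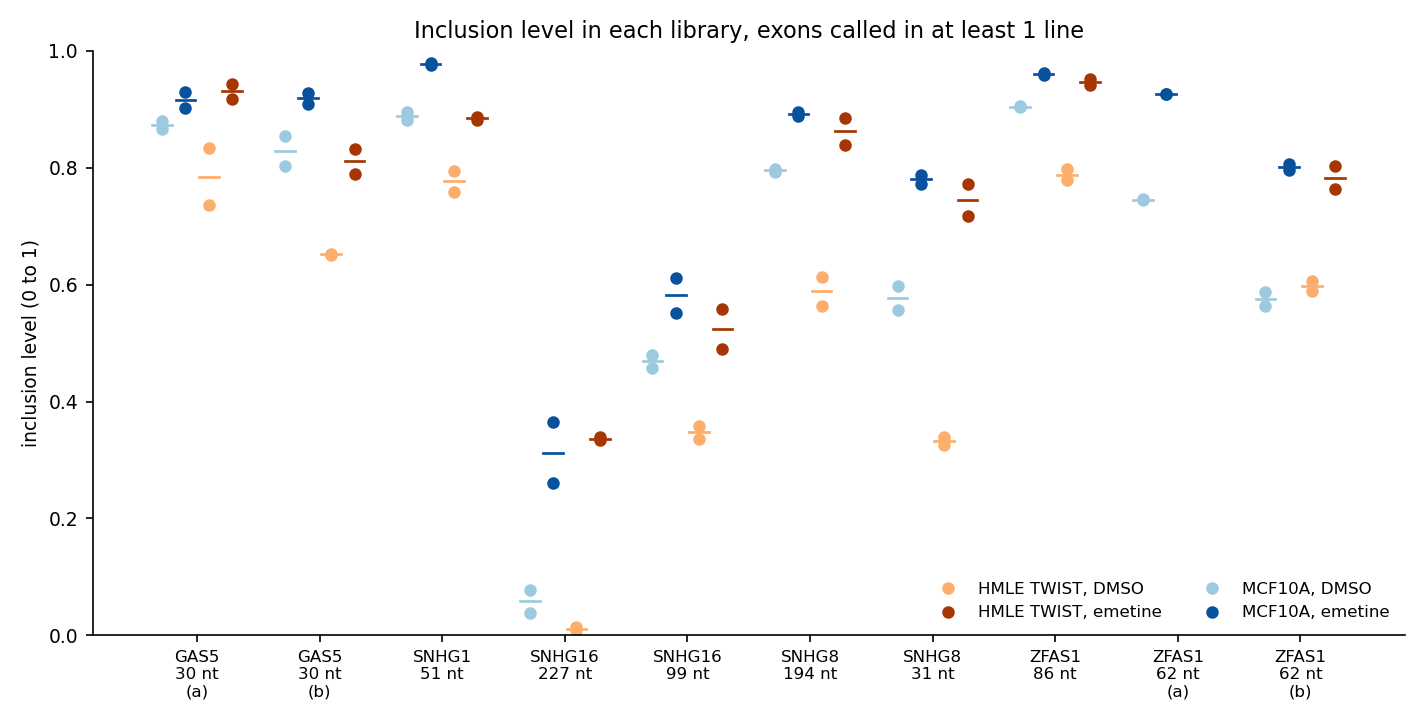
Inclusion level (0 to 1) in each library of the 10 host events called in at least 1 line; points are libraries, bars the mean of 2, and colours the 4 groups. Events of the same exon with other flanking exons are marked a and b, and the ZFAS1 event marked a was listed in MCF10A alone. Every emetine mean lies above the control mean of its line, and the 227 nt exon of SNHG16 starts lowest.

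In SNHG1 and GAS5, events were called in HMLE TWIST alone. The 51 nt exon of SNHG1 (chr11:62622360-62622410), between SNORD27 and SNORD28, stood at 0.795 and 0.759 with DMSO in HMLE TWIST, against 0.887 and 0.882 with emetine. The change of 0.107 was called (quasi-binomial adjusted p = 8.96e-09, limma adjusted p = 0.111), and was 0.0897 without the second listed control and 0.0804 without length correction, both under the minimum. In MCF10A it went from 0.881 and 0.896 to 0.978 and 0.975, a change of 0.0884 (quasi-binomial adjusted p = 2.59e-18, limma adjusted p = 0.0245). The outer ends of the flanking exons differed between the tables, so the difference between lines was not tested. Inclusion-form reads were 2.91-fold and skipping-form reads 0.552-fold the control in MCF10A, and 7.51-fold and 3.48-fold in HMLE TWIST. The deepest SNHG1 event, an exon of 39 nt between SNORD30 and SNORD31, had 0 to 3 skipping reads in any library beside 940 to 8597 inclusion reads.

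GAS5 had 118 events in MCF10A and 110 in HMLE TWIST, of which 22 were tested in each. In HMLE TWIST 2 were called, both of a 30 nt exon (chr1:173833813-173833842, minus strand). The event with the larger change had levels of 0.651 and 0.652 with DMSO, against 0.832 and 0.789 with emetine, a change of 0.159 (quasi-binomial adjusted p = 0.00487, limma adjusted p = 0.101), from 34 and 40 skipping reads in the controls and 57 and 78 under emetine. In MCF10A the corresponding event moved by 0.0900 (quasi-binomial adjusted p = 0.123, limma adjusted p = 0.117), on 9 to 15 skipping reads a library. Without the second listed HMLE TWIST control neither event was called (adjusted p = 0.0565 and 0.197 by the quasi-binomial model). The deepest GAS5 event, an exon of 36 nt between SNORD75 and SNORD76, had 6198 to 24417 inclusion reads and 0 to 4 skipping reads a library. Its inclusion-form reads were 1.58-fold and 1.98-fold the control under emetine.

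The remaining hosts had no called event in either line. In SNHG5 all 8 tested changes of HMLE TWIST lay between -0.0782 and -0.0021, and the 9 of MCF10A between -0.0689 and 0.0006. Its deepest exon, of 81 nt, stood at 0.974 and 0.975 with DMSO in MCF10A, against 0.964 and 0.960 with emetine, and at 0.974 and 0.965 against 0.937 and 0.928 in HMLE TWIST. The changes of -0.0124 (quasi-binomial adjusted p = 2.19e-05, limma adjusted p = 0.321) and -0.0370 (quasi-binomial adjusted p = 1.35e-16, limma adjusted p = 0.106) were under the minimum size. The largest change in HMLE TWIST, -0.0782 (quasi-binomial adjusted p = 4.32e-17, limma adjusted p = 0.0988), belonged to an exon of 105 nt that shares its 3′ end and its skipping junction with the 81 nt exon. In MCF10A the largest was -0.0689 for an exon of 85 nt (quasi-binomial adjusted p = 0.646, limma adjusted p = 0.636).

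SNHG6 had 4 tested events in each line, with changes of 0.0031 to 0.0144 (MCF10A) and -0.0003 to 0.0301 (HMLE TWIST). The largest in both belonged to its 112 nt exon, before SNORD87, included at 0.880 ± 0.00027 in the MCF10A controls and 0.894 ± 0.013 under emetine, and at 0.867 ± 0.0039 against 0.897 ± 0.0031 in HMLE TWIST (SD, n = 2). SNHG7 had 1 tested event, a 106 nt exon between SNORA17A and SNORA17B, with means of 0.995 and 0.998 in MCF10A and 0.983 and 0.999 in HMLE TWIST.

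SNHG12 and SNHG15, with the widest rises in depth among the members, kept near-complete inclusion. The 136 nt exon of SNHG12 had means of 0.979 and 0.973 in MCF10A and 0.978 and 0.951 in HMLE TWIST, with changes of -0.0064 and -0.0270 (quasi-binomial adjusted p = 0.731 and 0.276). Its deepest event, an 87 nt exon, had 0 to 2 skipping reads beside 487 to 7008 inclusion reads, and the inclusion-form reads were 8.56-fold and 6.29-fold the control. The 70 nt exon of SNHG15, beside SNORA9, had means of 0.965 and 0.974 in MCF10A and 0.989 and 0.990 in HMLE TWIST (quasi-binomial adjusted p = 0.635 and 0.948). Here both forms rose alike: inclusion-form reads were 5.63-fold and skipping-form reads 4.11-fold the control in MCF10A, and 13.9-fold and 12.6-fold in HMLE TWIST.

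**Figure D5:**
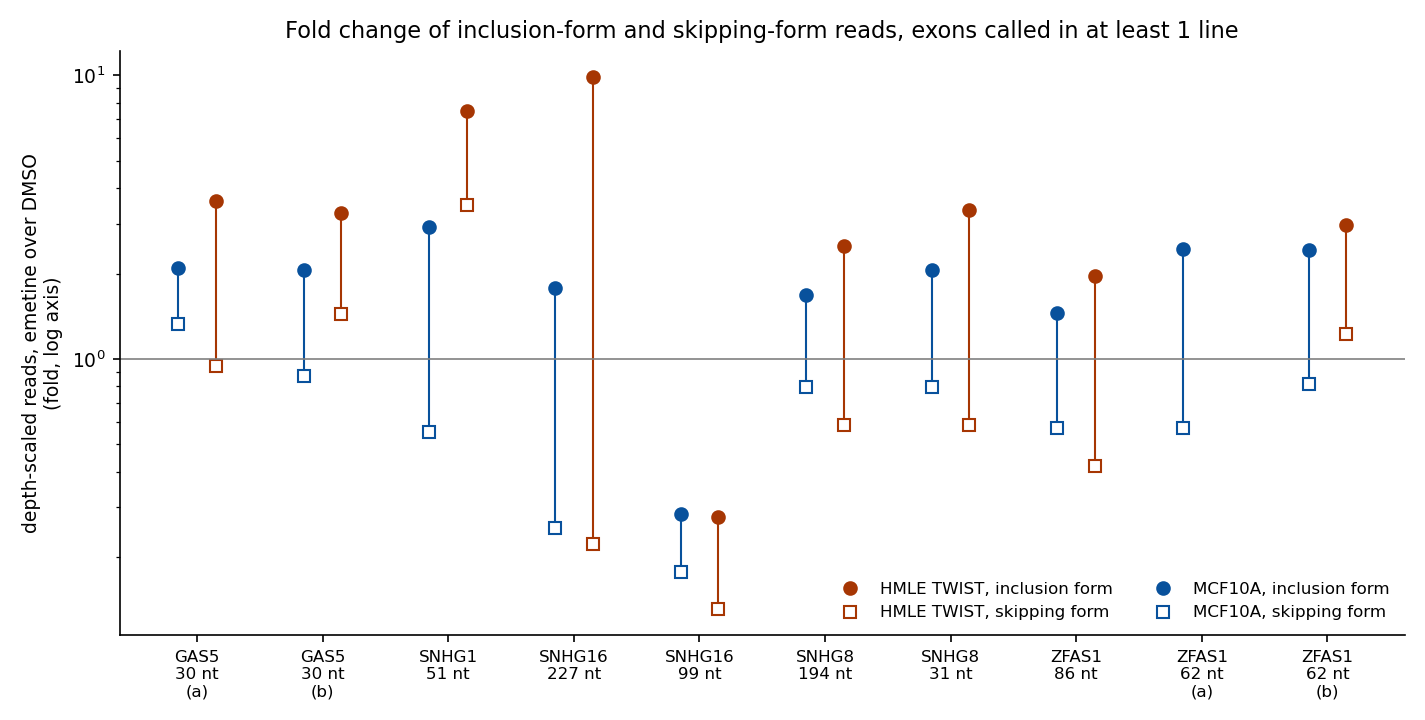
Reads of the inclusion form (filled circles) and of the skipping form (open squares) under emetine as a fold of the control (log axis, after depth scaling) for the same 10 events, in MCF10A (blue) and HMLE TWIST (brown); lines join the forms of an event. In SNHG8 and in the 86 nt exon of ZFAS1 the inclusion form is above 1 and the skipping form below 1 in both lines, and for the 99 nt exon of SNHG16 both are below 1.

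Changes of inclusion differed between the lines for 3 of the 63 host events tested over all 8 libraries, where 1.09% of 31825 events were called, 0.339% with a higher change in HMLE TWIST and 0.748% with a lower. They were the 31 nt and 194 nt exons of SNHG8, at 0.208 and 0.178 (quasi-binomial adjusted p = 0.0017 and 0.0016), and the 86 nt exon of ZFAS1, at 0.102 (quasi-binomial adjusted p = 0.0084). By limma none of the 3 was called (limma adjusted p = 0.485, 0.539 and 0.596), nor was any of the 31825 events, of which 4058 had an unadjusted p under 0.05. The 194 nt exon was not called with its own dispersion (adjusted p = 0.0733). The ZFAS1 exon was not called without length correction (difference of 0.0644), nor without the first listed MCF10A emetine library, the first listed HMLE TWIST control or the second listed HMLE TWIST emetine library (differences of 0.0999, 0.0920 and 0.0966). All 3 were also lower in the HMLE TWIST controls.

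In the controls, 4 of 43 host events tested between the lines were called, where 6.08% of 19301 events were called, 2.05% higher in HMLE TWIST and 4.04% lower. All 4 were lower in HMLE TWIST: the 31 nt and 194 nt exons of SNHG8 by -0.244 and -0.207, the 99 nt exon of SNHG16 by -0.121 and the 86 nt exon of ZFAS1 by -0.116. None of them was called by limma (limma adjusted p = 0.175, 0.177, 0.379 and 0.189), which called 36 of all events, and 4070 had an unadjusted p under 0.05. Without length correction the ZFAS1 difference was -0.0725, under the minimum. The 227 nt exon of SNHG16 differed by -0.0467 and the 62 nt exon of ZFAS1 by 0.0222, both under the minimum size.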

How the data were processed

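For each line the authors deposited a table of skipped exons laid out as rMATS writes it, from polyadenylated RNA in stranded paired-end libraries. The submitters' processing notes name STAR 2.5.3a and GRCh37 with no role; the rMATS version and whether counting used strand are not given in the sources used here. The members and lists were chosen with earlier results of these data known. Per the file headers, the authors give inclusion and skipping junction counts as pairs of replicates in a text cell, with effective lengths of 99 for skipping and 100 to 198 for inclusion. Their p-values and false discovery rates, and the authors' deposited difference score, were not used in the tests; the authors' deposited table had 7 host events in MCF10A and 14 in HMLE TWIST at a rate under 0.05 and a difference of at least 0.1, of which 5 and 9 were called here, while 2 and 5 had under 20 reads in a library. The difference was recomputed to within 0.00142. The first sample was taken as DMSO, from the order in the tables' names, since no header states it; every direction rests on that order.

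Inclusion was tested on the counts with a quasi-binomial model in R 4.3.3, with dispersions moderated by limma 3.58.1 and floored at 1. With 2 libraries a group these p-values rest on a dispersion shared across events. Depth was tested with limma-voom on counts summed per gene (minimum of 10 reads), in place of the planned edgeR test, which was not run. All fits ran over the whole tables, with two-sided tests and Benjamini-Hochberg adjustment. Only the MCF10A fits of emetine against DMSO were also run on simulated data, with the same dispersion for every event or gene. The outcome is not given here. Named genes are the 10 members and, of other lists, at most 2 rises and 2 falls called in both lines. For each member the deepest event and that with the widest change are given, with every event called in both lines or between them. Alternatives were another test, scaling, filter, dispersion, length correction, gene value, a replicate block and leaving out each library.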

Additional observations from a re-analysis of the deposited data

Results flagged for a closer look

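The depth of 3 of the 10 host genes responded differently in the 2 lines by the test of that difference. Over all 10385 tested genes 29.5% were called, so the members' share was near that of all genes. With library totals or with a replicate block 7 members were called. The log2 change was higher in HMLE TWIST than in MCF10A by 1.67 for SNHG7, by 1.31 for SNHG15 and by 1.21 for SNHG1. Over events in both tables, SNHG7 stood at 125 and 186 CPM in the HMLE TWIST emetine libraries and at 100.3 and 94.9 in those of MCF10A, although its controls were lower in HMLE TWIST. The spread between the emetine libraries of HMLE TWIST was wide for SNHG7 and SNHG1 (658 and 974 CPM) and narrow for SNHG15 (233 and 267).

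Inclusion of 3 host exons rose more in HMLE TWIST, by 0.208 for the 31 nt exon of SNHG8, by 0.178 for its 194 nt exon and by 0.102 for the 86 nt exon of ZFAS1. These were called among 63 tested host events, where 1.09% of 31825 events were called, and those of SNHG8 share a junction. All 3 began lower in the HMLE TWIST controls, and limma did not call the differences. Without length correction that of ZFAS1 was 0.0644, under the minimum.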

How the results depend on the processing

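No host gene or named host event that was called reversed its direction under any alternative. Across the alternatives, 413 of the values for host depth kept their direction and their side of the threshold, 5 fell below it, 15 came to pass it and 7 that were not called changed sign; for named host events these numbers were 675, 28, 2 and 10. Scaling by library totals is given beside the results it moved. By limma on log2 odds, events called fell from 3466 to 2012 in MCF10A, from 346 to 0 between the lines and from 1174 to 36 between controls; host events fell from 5 to 2 in MCF10A, from 9 to 4 in HMLE TWIST, from 3 to 0 between the lines and from 4 to 0 between controls. With each event's own dispersion 214 events differed between the lines. For the difference of depth responses, a replicate block gave 4607 genes in place of 3066 and 7 members in place of 3, and library totals gave 7 members; the block changed no other count by 1.5 times. With it SNHG5 (-0.29, limma-voom adjusted p = 0.00335) and SNHG6 (0.34, limma-voom adjusted p = 0.00586) were also called in HMLE TWIST, which made 10 of 10 members. Over all genes of that line the block raised the calls as well, from 6572 to 8235 of 11470. The numbers give no pairing by design: deviations of same-numbered libraries correlated at 0.108 in MCF10A and 0.581 in HMLE TWIST. Leaving out a library gave 1776 to 3874 genes and 3 to 5 members for that difference, 213 to 403 events for the difference of inclusion, and 6 to 9 host events in HMLE TWIST. Median-of-ratios scaling, added after the data were seen, left 8, 8, 3 and 8 members called. edgeR and DESeq2 were not run. Host events were lost to testing by too few reads (45 and 36) and, more often, by a rare form under its minimum (109 and 114).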
